A study of Homo sapiens with 12 samples.

Results

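In a 2 x 2 experiment, in which 2 treatments are given alone and together, the departure from additivity is the part of the joint effect that the separate effects do not add up to. It was measured here in all 12 arrays of the series, 3 in each of 4 arms, for 14582 genes. The cells were SK-MEL-2, an established human melanoma line, held for 24 hours in vehicle (DMSO), in dabrafenib at 100 nM with trametinib at 10 nM (the DT arm), in entinostat at 1 µM (the E arm), or in all 3 agents at those doses (the DTE arm). All arms are the same line and differed only in the agents, and dabrafenib was never given without trametinib, so the effects of that pair cannot be told apart. Titles of the samples describe the 3 replicates of an arm as biological, whereas the design text speaks of technical triplicates. P-values therefore cover the spread among these 12 arrays and nothing wider, and the precision is that of 3 arrays per arm. For each gene the contrast was (DTE − DT) − (E − DMSO) on log2 intensities after quantile normalization of the arrays. A contrast above 0 is called above additivity and a contrast below 0 below additivity. On the log2 scale, adding effects means multiplying intensities, so the expected DTE intensity of a gene was its DT level times its E level divided by its DMSO level. A gene was called when the adjusted p of limma's moderated test was under 0.05, and each contrast is given with its standard error (SE).

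Dabrafenib inhibits RAF kinases and trametinib inhibits the kinases MEK1 and MEK2, which pass growth signals from RAS to the kinase ERK. Active ERK drives genes for growth and division, and it also drives its own inhibitors, so that those genes serve as readouts of the pathway. Entinostat inhibits class I histone deacetylases, enzymes that remove acetyl groups from histones and other proteins, and such inhibitors both raise and lower many transcripts. In melanoma cells the MAPK pathway and the lineage factor MITF are linked, and the AP-1 factor JUN is known to respond to RAF and MEK inhibitors.

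The arrays correlated across genes at 0.990 to 0.994 within an arm and at 0.956 to 0.983 between arms, where genes are not independent replicates. As deposited, the arrays did not share a level: the geometric mean over the named genes was 36.6 to 42.7 on the DMSO arrays, 33.9 to 36.7 in DT, 40.9 to 50.2 in E and 25.2 to 27.6 in DTE. The DTE arrays were the lowest of all, and the level itself departed from additivity by -0.60 on the log2 scale. In bulk RNA fewer cells and less RNA per cell cannot be told apart, and the sources used here do not give how the deposited levels were set. Quantile normalization removes this shift by construction, and the median contrast over all genes was -0.63 before it and -0.005 after it. Every statement below is thus relative to the bulk of genes on the same array. Melanocyte lineage markers were present in each arm: SOX10 lay at 357 to 616 and S100B at 1823 to 2756 (geometric means). Of the markers of other cell types, the keratinocyte marker KRT5 and the fibroblast marker DCN were near background in all 4 arms. The keratinocyte marker KRT14 (24.5 to 44.3), the endothelial marker VWF (14.4 to 17.97) and the monocyte marker CD14 (28.2 to 57.9) were clear of it in all 4. Background was taken as the 95th percentile of the values of the dimmest 25% of genes, an intensity of 13.2. By that level 10364 genes were clear of background in all 4 arms and 4218 were near it in 1 or more arms, and the latter are kept apart.

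After adjustment, departure from additivity was called in a small share of genes and ran in both directions. Of 14582 genes, 290 lay above additivity (1.99%) and 326 below (2.24%). Among the 10364 genes clear of background these were 259 (2.5%) and 292 (2.82%), with median contrasts of 0.62 and -0.68 and the smallest called contrast at 0.37 in size. At least 2-fold departures numbered 28 above and 45 below. At an unadjusted p under 0.05 in limma's test there were 2702 of the 14582 genes, so a gene without a call is not shown to be additive. On the deposited scale, where the level shift remains, the split was 30 above and 9117 below, and after centring each array on its median it was 1170 above and 1103 below. Leaving out single arrays lowered the count above additivity by more than 1.5 times for 4 of the 12 arrays, to 186 without DMSO replicate 1, 174 without DMSO replicate 2, 190 without DT replicate 2 and 192 without E replicate 2. Among genes clear of background the counts without these arrays were 165, 152, 167 and 168 above, and the count below fell to 192 without DMSO replicate 2. Of the called genes clear of background, 238 of 259 above and 262 of 292 below were protein coding (91.9% and 89.7%, against 87.5% of the genes not called). Their median intensity was 107 and 93.0, against 60.4 for the genes not called.

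Most departures took 1 form: the effect of dabrafenib plus trametinib was smaller, or was no longer called, once entinostat was present. Over the 10364 genes clear of background, dabrafenib plus trametinib changed 3968 genes without entinostat (38.3%) and 2670 with it (25.8%). Entinostat changed 4073 genes without dabrafenib plus trametinib (39.3%) and 4344 with it (41.9%). Among the 551 called departures, the effect of dabrafenib plus trametinib was lost in 257 (46.6%), smaller in 200 (36.3%), gained in 60 (10.9%), reversed in 23 (4.17%) and larger in 9 (1.63%). Lost here means called alone and not called with the other treatment, gained the opposite, and reversed called in opposite directions. The effect of entinostat was spread more evenly, with 181 gained (32.8%), 159 lost (28.9%), 103 larger (18.7%), 65 reversed (11.8%) and 41 smaller (7.44%). These classes describe how a departure arose and are not a second test, since they use the same arrays.

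**Figure D1:**
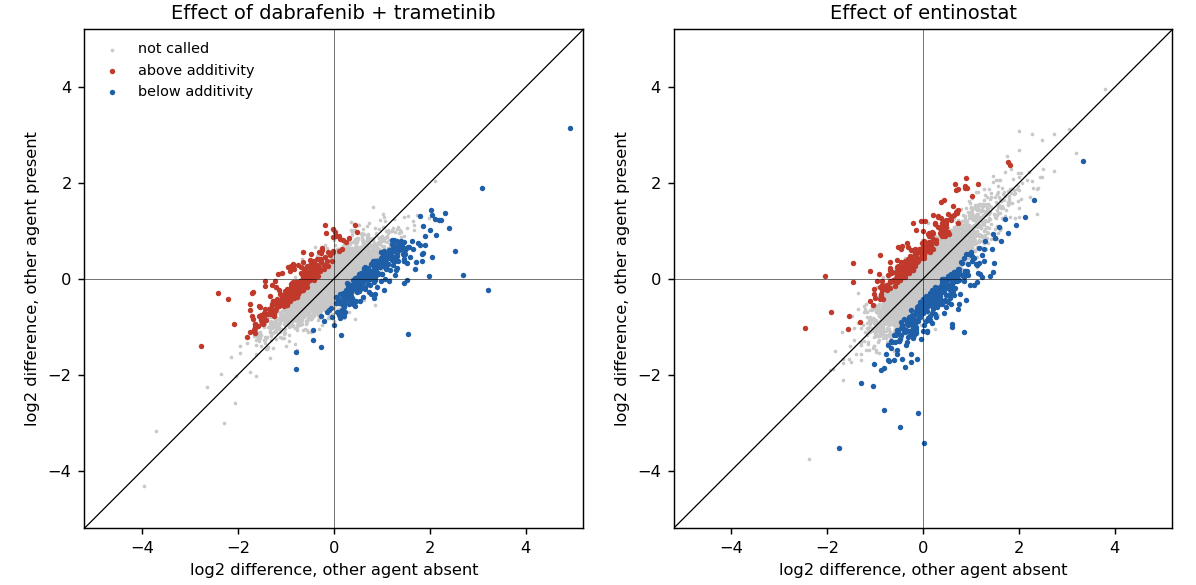
Log2 difference that dabrafenib plus trametinib (left) or entinostat (right) made for each of the 10364 genes clear of background, without the other treatment (x axis) and with it (y axis). The diagonal is additivity. The 259 genes called above it are red and the 292 below it blue, and on the left both groups lie mostly between the diagonal and the horizontal axis.

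The direction of a departure went with what the single treatments did. Of the 259 genes above additivity, 109 (42.1%) were lowered by both treatments alone, 80 (30.9%) by dabrafenib plus trametinib only, and 39 (15.1%) were lowered by dabrafenib plus trametinib and raised by entinostat. Of the 292 below, 128 (43.8%) were raised by both alone, 78 (26.7%) by dabrafenib plus trametinib only, and 46 (15.8%) were raised by it and lowered by entinostat. Over all 10364 genes clear of background, dabrafenib plus trametinib alone changed 38.3% and entinostat alone 39.3%, in either direction. Each single effect shares both of its arms with the contrast, at the opposite sign: DT and DMSO for the pair, E and DMSO for entinostat. Spread in those arrays alone thus sets a single effect against the contrast, so the shares among called genes are only a description. Genes were also chosen by the size of a single effect and not by the contrast, although on the same arrays. Dabrafenib plus trametinib raised 182 genes at least 2-fold in the absence of entinostat, by a median of 1.24 on the log2 scale, and the median for those genes was 0.64 with entinostat present. It lowered 242 genes, with medians of -1.27 and -0.85. The effect was smaller with entinostat in 97.3% of the 182 and 91.7% of the 242. Of these genes, 105 and 82 were themselves called departures, below and above additivity. Chosen on large values without entinostat, such genes tend to be smaller elsewhere, so the reverse choice is given too: the 51 genes raised and 100 genes lowered at least 2-fold with entinostat present had medians of 1.13 and -1.18 there, and of 1.23 and -1.33 without it. In 43.1% of these 51 genes and 40% of these 100 the effect was the smaller without entinostat. In all, 424 genes moved at least 2-fold without entinostat and 151 with it, against 447 and 114 after loess, 569 and 378 after median centring, and 687 and 5150 on the deposited scale, where the order turned. For entinostat the numbers were 396 without and 497 with dabrafenib plus trametinib, an order that turned after loess (441 and 413).

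Some of the large departures below additivity belonged to genes that dabrafenib plus trametinib raised when entinostat was absent, with no call for that effect when it was present. AQP7P1, MAP1LC3C, FOXD3, MYOZ1 and YPEL3 were of this kind. AQP7P1, a transcribed pseudogene of an aquaglyceroporin, measured 41.7, 33.9 and 31.04 on the DMSO arrays, 355, 323 and 302 in DT, 37.1, 33.7 and 36.98 in E and 29.4, 29.2 and 33.2 in DTE. Only the DT arrays stood apart, and the expected DTE level was 331 (-3.44 ± 0.16, adjusted p = 2.1e-07). Probes of a pseudogene may also bind its parent or relatives, which was not tested. MAP1LC3C, a member of the LC3 family that marks autophagosomes, measured 22.1, 21.7 and 22.5 in DMSO, 159, 131 and 139 in DT, 15.96, 15.9 and 15.7 in E and 16.5, 18.7 and 15.5 in DTE, against an expected 103 (-2.61 ± 0.13, adjusted p = 3.2e-07). Its DTE arrays overlapped those of entinostat alone and lay below every DMSO array, so the rise seen in DT was absent with all 3 agents. FOXD3, a transcription factor of the neural crest, showed the same order at 31.1, 38.6 and 40.8 in DMSO, 159, 148 and 129.99 in DT, 24.4, 18.4 and 20.5 in E and 29.1, 22.1 and 15.9 in DTE (-1.94 ± 0.26, adjusted p = 0.0015). MYOZ1, a calcineurin-binding protein of the muscle Z-disc, measured 33.3, 37.2 and 44.3 in DMSO, 130.3, 111 and 127 in DT, 29.6, 31.6 and 34.8 in E and 36.3, 35.7 and 38.2 in DTE (-1.49 ± 0.15, adjusted p = 0.00022). In MYOZ1 the DTE arrays fell within the range of the DMSO arrays. YPEL3 departed by -0.99 ± 0.14, and its DT arrays were the highest of the 4 arms.

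A second set kept part of its rise. ANGPTL7, a secreted angiopoietin-like protein, measured 89.2, 86.9 and 94.9 in DMSO, 2755, 2636 and 2792 in DT, 22.6, 27.7 and 30.8 in E and 253, 290.3 and 185 in DTE. The DTE arrays lay above DMSO and far below DT, at 0.294 of the expected 809.9 as a ratio (-1.76 ± 0.21, adjusted p = 0.00053). LCTL, a klotho-family protein, followed it at 47.8, 56.1 and 60.6 in DMSO, 477, 459 and 448 in DT, 31.8, 25.4 and 23.2 in E and 107, 89.8 and 98.6 in DTE (-1.19 ± 0.17). ARHGEF6, an exchange factor for RAC and CDC42, departed by -1.21 ± 0.19 and the formin FHDC1 by -1.60 ± 0.13. In these 4 genes the DTE arrays lay above the DMSO arrays and below the DT arrays without overlap. DMD, which encodes dystrophin, departed by -1.19 ± 0.11, and dabrafenib plus trametinib raised it by 1.52 without entinostat and by 0.33 with it.

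JUN, the AP-1 subunit, was raised by each treatment alone and by far less than the sum with both. It measured 89.8, 102 and 98.8 on the DMSO arrays, 589, 548 and 524 in DT, 215, 174 and 139.7 in E and 276, 271 and 230.01 in DTE, where additivity would give 993 (-1.94 ± 0.19, adjusted p = 0.00018). Every DTE array lay above every E array and below every DT array, so that entinostat raised JUN alone (0.84) and lowered it on top of dabrafenib plus trametinib (-1.10). JUN was 1 of the 13 measured immediate early and AP-1 genes, and the only one of them called in either direction (7.69% below, against 2.24% of all genes), while the median contrast of that list was -0.15. At an unadjusted p under 0.05 in limma's test, however, 4 of the 13 were above and 6 below. The members without a call are thus not shown to be additive. Of the 13, 9 were below on the deposited scale, and after median centring 5 were. Promoters are printed for JUN and MAP1LC3C only, and those of the other genes below additivity are not shown. That JUN holds the element TGACATCA was known beforehand, since it is known from the JUN promoter as a site for JUN with ATF2. MAP1LC3C holds the same element. It is shown in capitals in the 250 bases before each start, 67 bases upstream in JUN and, on the other strand and thus as TGATGTCA, 48 bases upstream in MAP1LC3C (RefSeq, GRCh38.p14, both genes on the minus strand of chromosome 1, chr1:58784048-58784297 and chr1:241999099-241999348).
JUN: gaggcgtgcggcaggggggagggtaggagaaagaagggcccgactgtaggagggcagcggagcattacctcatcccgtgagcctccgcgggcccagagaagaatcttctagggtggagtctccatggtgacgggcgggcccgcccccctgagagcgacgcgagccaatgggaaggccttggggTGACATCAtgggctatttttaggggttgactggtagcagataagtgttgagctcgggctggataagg
MAP1LC3C: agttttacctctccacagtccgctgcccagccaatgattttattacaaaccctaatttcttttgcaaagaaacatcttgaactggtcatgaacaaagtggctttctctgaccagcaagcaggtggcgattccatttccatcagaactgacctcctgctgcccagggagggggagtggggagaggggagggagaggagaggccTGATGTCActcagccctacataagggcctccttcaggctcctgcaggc
Of 8017 genes clear of background with a promoter in the RefSeq table, 1.37% hold this element on either strand, against 2.61% of 230 genes below additivity and 1.47% of 204 above. For the other AP-1 element searched, TGANTCA, the shares were 4.17%, 6.52% and 5.39%, and for the cAMP response element TGACGTCA 2.74%, 5.22% and 4.9%, in the same order. The ETS core CCGGAAG was held by 15.1% of all, 7.39% below and 13.7% above, and the E-box CACGTG by 8.62%, 4.35% and 10.3%. A match is a description of the letters and not a binding site.

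**Figure D2:**
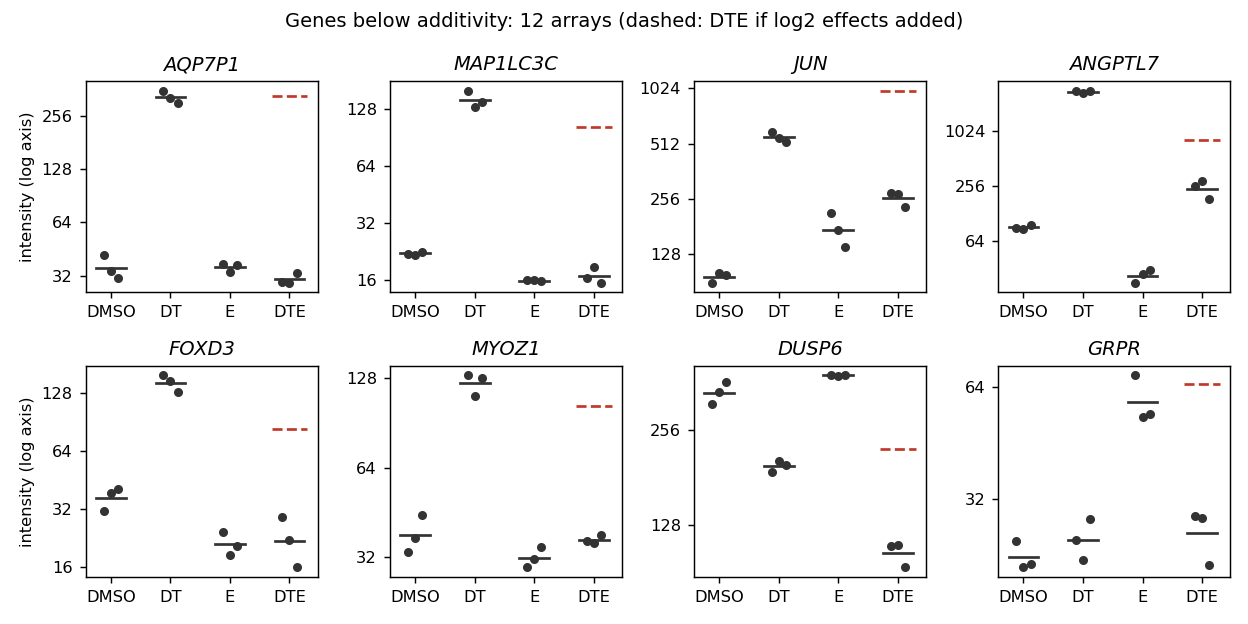
Intensity on each of the 12 arrays (points, log axis) for 8 genes below additivity, with the geometric mean of each arm (line) and the DTE level that added log2 effects would give (red dashes). In each gene all 3 DTE points lie under the dashes.

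Other genes below additivity were raised by both treatments alone, and in RRAS, MAP1B and ANXA1 all 3 agents gave no more than the stronger of them. RRAS, a small GTPase related to RAS, measured 166, 172 and 193 in DMSO, 649, 709 and 626 in DT, 391, 405 and 361 in E and 670.3, 612 and 609.97 in DTE (-1.19 ± 0.12, adjusted p = 0.00022). Its DT and DTE arrays overlapped, and the entinostat difference was 1.12 alone and -0.07 in the presence of the other agents. MAP1B, a neuronal microtubule-associated protein, measured 95.6, 123 and 186 in DMSO, 281, 285 and 305 in DT, 312, 316 and 292 in E and 287, 310.1 and 300.1 in DTE (-1.20 ± 0.24, adjusted p = 0.015), with 3 overlapping treated arms and a wide spread in DMSO. ANXA1, a calcium-dependent phospholipid-binding protein, measured 437, 439 and 479 in DMSO, 822, 869 and 771 in DT, 1042, 869 and 917 in E and 816, 746 and 698 in DTE, against an expected 1708 (-1.18 ± 0.13). Its 3 treated arms all lay above DMSO. RHOB, a stress-responsive GTPase (-1.10 ± 0.11), MARCKS, a substrate of protein kinase C (-1.13 ± 0.14), and BCL6, a transcriptional repressor (-0.84 ± 0.13), were also raised by both treatments alone. KRTAP2-3, a hair keratin-associated protein (-1.33 ± 0.34, adjusted p = 0.049), lost its call without any of 11 arrays, where the adjusted p reached 0.11, and its E arrays spread from 87.1 to 225.

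A smaller group below additivity held genes that entinostat raised and that no longer rose, or rose less, with dabrafenib and trametinib present. GRPR, the gastrin-releasing peptide receptor, measured 24.7, 20.98 and 21.4 in DMSO, 24.8, 22.02 and 28.3 in DT, 69, 53.2 and 54.4 in E and 28.8, 28.4 and 21.3 in DTE (-1.33 ± 0.20, adjusted p = 0.0025). The DTE arrays overlapped those of DMSO and DT and all lay below the E arrays. With the mean of its probe sets in place of the brightest one, the adjusted p of GRPR was 0.059. ZG16B, a secreted lectin-like protein, measured 43.5, 51.8 and 60.8 in DMSO, 41.1, 42.1 and 45.8 in DT, 117, 191 and 134 in E and 62.3, 52.6 and 48.1 in DTE (-1.15 ± 0.24, adjusted p = 0.017). TMSB15A, an actin-binding thymosin, kept most of its rise at 92.7, 96.99 and 96.3 in DMSO, 116, 126 and 88.3 in DT, 1064, 976 and 855 in E and 609.6, 676 and 511 in DTE (-0.88 ± 0.19, adjusted p = 0.022), and it lost its call without any of 6 arrays, with an adjusted p of up to 0.058.

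Among genes with large departures above additivity, ANKS1A, MYC and LPXN were lowered by each treatment alone and lay no lower with both than the lower of the single treatments, beyond the spread of the arrays. ANKS1A, an adaptor protein that binds Eph receptors, measured 741, 733 and 733 on the DMSO arrays, 139, 138 and 138 in DT, 152, 194 and 194 in E and 148, 137 and 151 in DTE. The 3 treated arms lay close together and far below DMSO, and the DTE level was 4.31 times the expected 33.6 (2.11 ± 0.13, adjusted p = 4.4e-06). LPXN, a focal adhesion protein of the paxillin family, measured 156, 164 and 147 in DMSO, 58.3, 61.7 and 52.5 in DT, 56.4, 56.7 and 55.95 in E and 55.6, 66.2 and 43.9 in DTE (1.39 ± 0.18, adjusted p = 0.00087). Its treated arms overlapped one another and lay below every DMSO array. SERTAD4 had the same order at 131, 109.7 and 141 in DMSO, 49.8, 43.2 and 47.7 in DT, 66.6, 54.9 and 54.9 in E and 57.3, 57.6 and 43.8 in DTE (1.28 ± 0.18, adjusted p = 0.002). Low expected levels were few. Among the 259 genes above additivity and clear of background, the expected DTE level was at or under 13.2 in 7 and under 2 times that level in 43, which leaves 216 above it. CHL1, a neural cell adhesion protein, measured 151, 144 and 143 in DMSO, 74.6, 78.5 and 82.2 in DT, 95.99, 107 and 105 in E and 119, 130.4 and 122 in DTE (1.17 ± 0.11, adjusted p = 0.00014). It was lowered by each treatment alone and raised by each in the presence of the other, and its DTE arrays lay between DMSO and both single treatments.

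Genes lowered by dabrafenib plus trametinib and brought back, in part or in full, by entinostat made up the next group. IRF4, a transcription factor of the melanocyte and lymphoid lineages, measured 64.1, 79.8 and 66.5 in DMSO, 33.05, 30.7 and 29.9 in DT, 62.9, 78.1 and 63.2 in E and 70.9, 76.5 and 69.8 in DTE (1.26 ± 0.15, adjusted p = 0.00063). The DTE arrays lay among those of DMSO and E, and the entinostat difference was -0.04 alone and 1.21 in the presence of the inhibitors. DAPK1, a calcium-regulated kinase linked to cell death, measured 154, 151 and 129.7 in DMSO, 44.9, 41.3 and 43.6 in DT, 166, 193 and 207 in E and 136, 132 and 125 in DTE (1.22 ± 0.14, adjusted p = 0.0004). PEG10, an imprinted gene derived from a retrotransposon, measured 291, 279 and 243 in DMSO, 119, 136 and 126 in DT, 571, 493 and 454 in E and 565, 484 and 597 in DTE (1.20 ± 0.16, adjusted p = 0.0011). In PEG10 the DTE and E arrays overlapped at the top. TM4SF1, a membrane protein of many tumours, measured 1344, 1290 and 1369 in DMSO, 557, 566 and 516 in DT, 2184, 2063 and 2224 in E and 1934, 1917 and 2063 in DTE (1.16 ± 0.10, adjusted p = 0.00014), and all of its DTE arrays lay above DMSO. TPD52L1 (1.18 ± 0.20), the pseudogene CEP192P1 (1.15 ± 0.17) and TLR5, the receptor for bacterial flagellin (1.21 ± 0.27), were of this kind, although TLR5 lost its call without any of 7 arrays, with an adjusted p of up to 0.063. CXXC4, an inhibitor of Wnt signalling, differed in that dabrafenib plus trametinib did not change it alone: it measured 19.1, 20.3 and 17.4 in DMSO, 18.3, 17.9 and 14.1 in DT, 29.4, 33.5 and 27.5 in E and 75.3, 63.04 and 59.3 in DTE (1.31 ± 0.18, adjusted p = 0.0012). Every DTE array of CXXC4 lay above every other array.

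**Figure D3:**
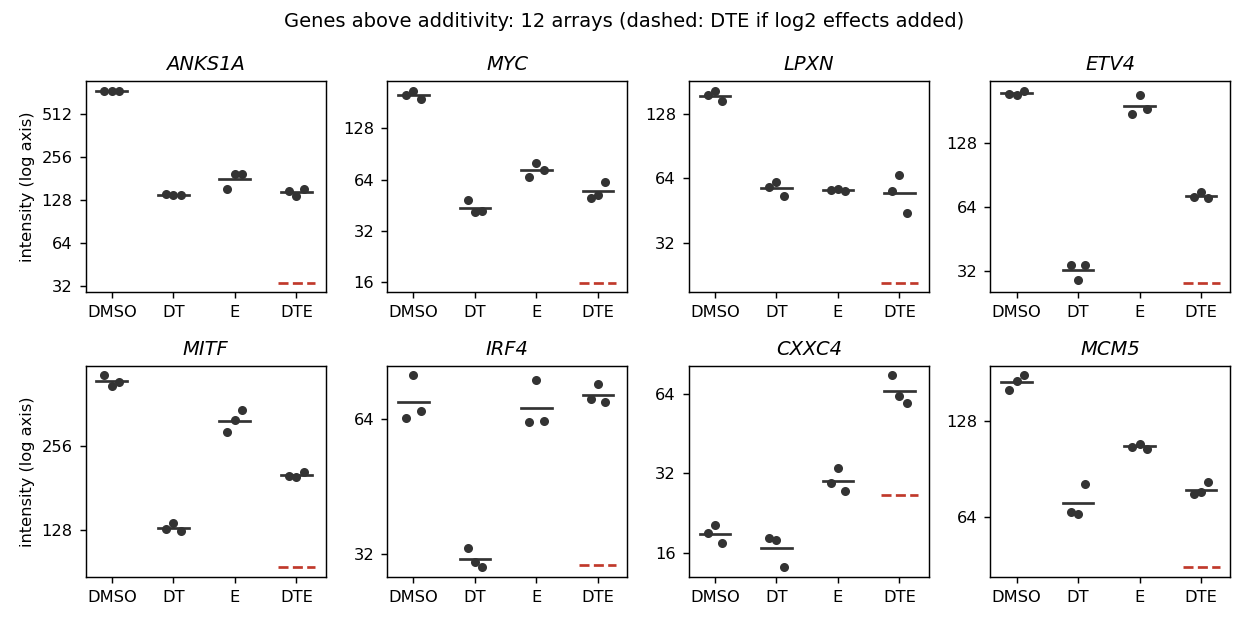
Intensity on each of the 12 arrays (points, log axis) for 8 genes above additivity, with the geometric mean of each arm (line) and the DTE level that added log2 effects would give (red dashes). In each gene all 3 DTE points lie over the dashes.

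On the deposited scale, 7 of the 41 named genes above additivity were still called above it: ANKS1A (1.30), MYC (1.10), LPXN (0.69), TM4SF1 (0.65), MIR7-3HG (0.63), ETV4 (0.62) and SERTAD4 (0.57). A further 16 kept a contrast above 0 without a call there, among them IRF4 (0.42), DAPK1 (0.42), CHL1 (0.36), MITF (0.29) and PEG10 (0.47), and 18 turned to a contrast below 0. All 42 named genes below additivity were called below it on both scales. On the deposited scale, however, 9117 of the 14582 genes were called below, so the second call is no test of these genes. After cyclic loess all 83 named calls held, in the same direction.

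**Figure D4:**
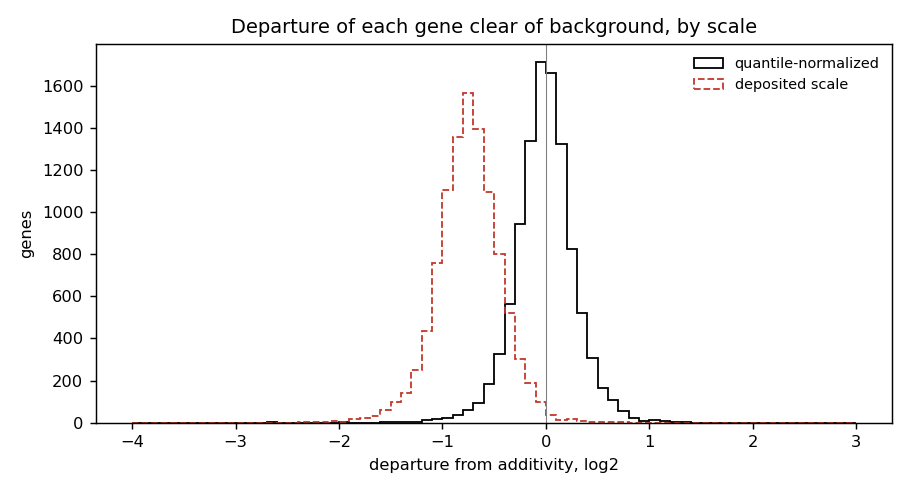
Number of genes (y axis) by departure from additivity on the log2 scale (x axis, bins of 0.1, the outermost values gathered in the end bins) for the 10364 genes clear of background. The black line is after quantile normalization and lies around 0, and the dashed line is on the deposited scale and is displaced below 0.

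Output genes of the ERK pathway were called in both directions. Of 26 measured members, 4 lay above additivity and 3 below (15.4% and 11.5%, against 1.99% and 2.24% of all genes), with a median contrast of 0.10 against -0.005 over all genes. The split depended on the scale, with 2 above and 16 below on the deposited scale, 4 and 6 after median centring and 7 and 3 after loess. MYC, the growth regulator, measured 200.4, 213 and 189 in DMSO, 48.4, 41.2 and 41.9 in DT, 66.9, 80.1 and 73.5 in E and 50.3, 52.1 and 62.4 in DTE (1.78 ± 0.15, adjusted p = 8.2e-05), and its expected DTE level of 15.97 was near background. Each treatment alone took MYC below every DMSO array, and with all 3 agents it lay between the DT and the E arrays. ETV4, a PEA3-type ETS factor that ERK controls, measured 216, 214 and 226 in DMSO, 34, 28.8 and 34.1 in DT, 174, 214 and 185 in E and 71.01, 75.05 and 70.6 in DTE (1.36 ± 0.13, adjusted p = 0.00018). The entinostat difference in ETV4 was -0.20 alone, without a call, and entinostat raised it by 1.16 on top of the inhibitors. HMGA1, a chromatin architecture protein, departed by 0.69 ± 0.10, which was -0.090 on the deposited scale, and the cytokine LIF, near background in 1 arm, by 0.74 ± 0.12. DUSP6, the phosphatase that inactivates ERK, ran the other way at 311, 340.1 and 366 in DMSO, 189, 205 and 199 in DT, 384, 383 and 384 in E and 109, 110.04 and 93.4 in DTE (-1.11 ± 0.12, adjusted p = 0.00038). Dabrafenib plus trametinib lowered DUSP6 by more in the presence of entinostat (-1.88) than in its absence (-0.78), and the DTE arrays were the lowest. The AP-1 subunit FOSL1 (-0.73 ± 0.16) and the cytokine IL11 (-0.85 ± 0.20) were the others below, and without single arrays 1 to 3 members were called below. LIF, FOSL1 and IL11 are named because the counts are small, after their values were seen. The other feedback inhibitors measured, SPRY2 (-0.08 ± 0.12), SPRY4 (0.54 ± 0.19), DUSP4 (0.36 ± 0.15) and DUSP5 (-0.47 ± 0.20), were not called, nor were the ETS factors ETV1 (0.35 ± 0.11) and ETV5 (0.23 ± 0.11). A missing call does not show additivity. At an unadjusted p under 0.05 in limma's test, 10 of the 26 members were above and 6 below.

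In the melanocyte list, 1 of 16 measured genes lay above additivity and 2 below (6.25% and 12.5%, against 1.99% and 2.24% of all genes), and the median contrast was -0.05. The split was 0 and 11 on the deposited scale, after median centring 1 and 3, and after loess 2 and 2. MITF, the master regulator of the lineage, measured 456, 419 and 431 in DMSO, 129, 135 and 126 in DT, 286, 316 and 343 in E and 199.8, 198 and 206 in DTE (1.10 ± 0.12, adjusted p = 0.00022). Entinostat lowered MITF alone (-0.47) and raised it in the presence of dabrafenib and trametinib (0.63), where it stayed below every E array. EDNRB, the endothelin receptor of melanocytes, measured 245, 246 and 257 in DMSO, 295, 289.6 and 281 in DT, 241, 256 and 259 in E and 159.5, 162 and 125 in DTE (-0.98 ± 0.14, adjusted p = 0.0018). Neither treatment alone was called for EDNRB, and the DTE arrays were below all others. PMEL, the melanosome fibre protein, departed by -0.68 ± 0.17 (adjusted p = 0.041) and lost its call without any of 9 arrays, with an adjusted p of up to 0.096. The pigment enzymes TYR (-0.33 ± 0.19) and TYRP1 (-0.14 ± 0.11), the antigen MLANA (0.18 ± 0.17) and the lineage factor SOX10 (0.01 ± 0.15) were not called.

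Many genes of DNA replication lay above additivity. Of 19 measured members 10 were called above (52.6%, against 1.99% of all genes) and 0 below in limma's test, with 16 above and 1 below at an unadjusted p under 0.05. Here 18 of 19 contrasts were above 0, and the median was 0.51. The median effect of dabrafenib plus trametinib on these genes was -1.31 without entinostat and -0.80 with it, and that of entinostat -0.21 without and 0.26 with dabrafenib and trametinib. Calls above additivity were common among genes that dabrafenib plus trametinib lowered. They were made in 82 of the 242 genes clear of background that it lowered at least 2-fold without entinostat. Whether replication genes differ from other genes lowered as much was not tested. These figures are relative to the bulk of genes, and on the deposited scale the median of the list was -0.23, with 0 members called above and 3 below. The split was 12 and 0 after loess and 4 and 0 after median centring. Without single arrays 3 to 8 members were called above, the fewest without DT replicate 1, and leaving out any array but DTE replicate 2 moved the count by more than 1.5 times. MCM5, a subunit of the MCM replicative helicase, measured 160.3, 172 and 179 in DMSO, 66.2, 65.3 and 81.3 in DT, 107, 109 and 105 in E and 75.3, 76.3 and 82.2 in DTE (0.82 ± 0.13, adjusted p = 0.0037). All of its treated arrays lay below DMSO. MCM3, of the same helicase, measured 348, 368 and 369 in DMSO, 115, 121 and 125 in DT, 281, 289.6 and 301 in E and 151, 149 and 144 in DTE (0.62 ± 0.10, or -0.18 on the deposited scale). MCM10, an origin firing factor, departed by 0.60 ± 0.13 (-0.11 deposited) and MCM6 by 0.57 ± 0.12 (-0.19 deposited). MCM10 lost its call without DMSO replicate 1 (adjusted p = 0.051) and MCM6 without any of 4 arrays (adjusted p up to 0.058).

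Ribosome biogenesis factors shared this direction. Of 21 measured members 10 were called above additivity (47.6%, against 1.99% of all genes) and 0 below. Contrasts were above 0 in 19 of 21, and the median was 0.44. On the deposited scale the median was -0.34, with 0 called above and 5 below. After loess 11 and after median centring 4 were above. Without single arrays 4 to 9 were above, the fewest without DMSO replicate 2. Leaving out DTE replicate 3 gave 9, DT replicates 2 and 3, E replicate 2 and DTE replicates 1 and 2 gave 7, and each of the other arrays gave 6 or fewer. NOLC1, a nucleolar chaperone of small RNA particles, measured 856, 869 and 879.7 in DMSO, 416, 456 and 390.1 in DT, 608, 577 and 586 in E and 457, 469 and 442 in DTE (0.67 ± 0.11, or -0.11 on the deposited scale). Its DT and DTE arrays overlapped narrowly, and all treated arrays lay below DMSO. RRP12, of pre-ribosome export, departed by 0.65 ± 0.10 (-0.17 deposited), RRP1B by 0.65 ± 0.11 (-0.12 deposited) and LYAR, a nucleolar growth factor, by 0.61 ± 0.13 (-0.16 deposited). LYAR lost its call without E replicate 2 (adjusted p = 0.053). The median effect of dabrafenib plus trametinib on the list was -0.75 without and -0.38 with entinostat, and that of entinostat -0.39 without and 0.02 with the inhibitors. Whether the list differs from other genes lowered as much was not tested. At an unadjusted p under 0.05, 15 members were above and 0 below. In limma's test 0 of 16 ribosomal protein genes and 0 of 23 translation factors were called, with 1 and 6 at an unadjusted p under 0.05. With 1.99% of all genes called above and 2.24% below, lists of this size would hold few calls or none.

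Other lists of proliferation genes, and glycolysis, held called departures too, where 1.99% of all genes were called above and 2.24% below. Of 32 mitosis genes 4 were above additivity (12.5%) and 0 below in limma's test, against 12 and 1 at an unadjusted p under 0.05, with a median of 0.25 and, on the deposited scale, of -0.47. AURKB, the kinase of the chromosomal passenger complex, measured 341, 327 and 366 in DMSO, 105, 138 and 122 in DT, 396, 386 and 364 in E and 247, 216 and 221 in DTE (0.76 ± 0.14, adjusted p = 0.0091, with -0.029 on the deposited scale). The DTE arrays lay between those of DT and DMSO. The cyclin CCNA2 departed by 0.53 ± 0.11 (-0.25 deposited), while CDC20 (0.60 ± 0.13, -0.21 deposited) and CDK1 (0.70 ± 0.18, -0.085 deposited) lost their calls without any of 7 and any of 10 arrays, with adjusted p of up to 0.06 and 0.11. Without single arrays 2 to 4 mitosis genes were called above, and the split was 0 above and 17 below on the deposited scale, 2 and 1 after median centring and 5 and 0 after loess. Of 18 G1 control genes 2 were above (11.1%) and 0 below in limma's test, against 5 and 1 at an unadjusted p under 0.05, with 0 and 11 on the deposited scale and 5 and 0 after loess. They were the phosphatase CDC25A (0.82 ± 0.16) and the repressor E2F8 (0.55 ± 0.13, -0.19 deposited), which lost its call without any of 8 arrays (adjusted p up to 0.071). In homologous recombination only 1 of 16 was above (6.25%, with 0 above and 9 below on the deposited scale). It was XRCC2 (0.64 ± 0.14, -0.11 deposited), and it lost its call without any of 4 arrays (adjusted p up to 0.065). Of 8 glycolysis genes 2 were above (25%, with 0 above and 3 below on the deposited scale). They were GPI (0.56 ± 0.09, -0.20 deposited) and LDHA (0.61 ± 0.11, -0.17 deposited), which encode glucose phosphate isomerase and lactate dehydrogenase A. LDHA measured 193, 219 and 205 in DMSO, 137, 138 and 128 in DT, 226, 223 and 221 in E and 229, 227 and 209 in DTE, so that only the DT arrays stood below the others.

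**Figure D5:**
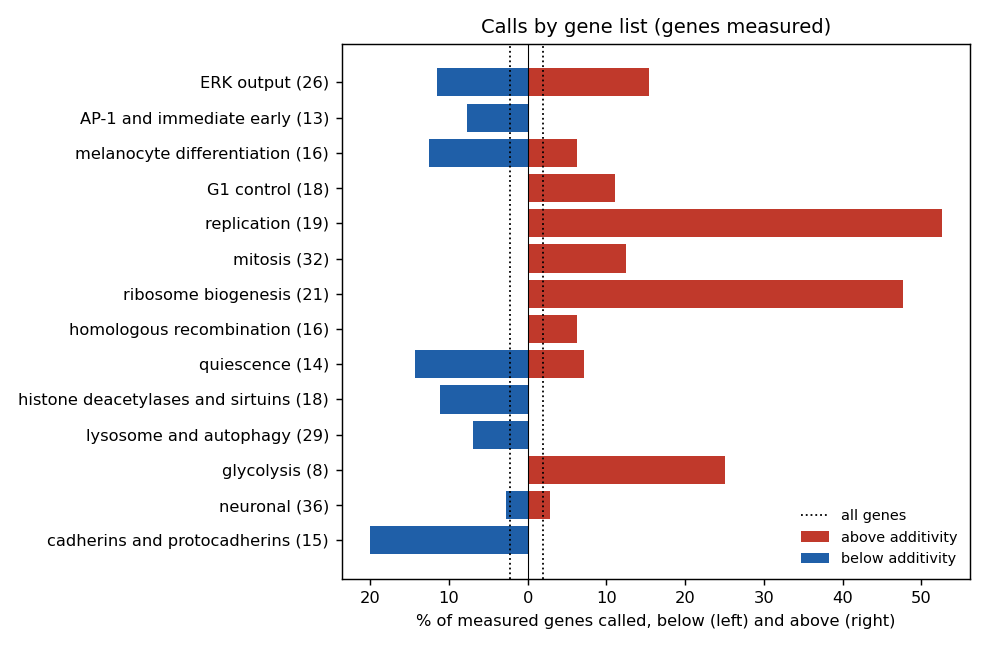
Share of the measured genes of each of 14 lists (number measured in brackets) called above additivity (red, to the right) and below it (blue, to the left), with the shares over all genes as dotted lines (1.99% and 2.24%). Replication (52.6%) and ribosome biogenesis (47.6%) have the longest bars, and both are on the right.

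Some genes of arrest and of the deacetylases themselves were called, in small counts but at shares over those of all genes. In the quiescence list 2 of 14 were below additivity and 1 above (14.3% and 7.14%, against 2.24% and 1.99% of all genes), with a median of -0.14. There were 12 below and 0 above on the deposited scale, and after median centring 3 and 0. TXNIP, an inhibitor of thioredoxin that responds to glucose, measured 65.2, 71.5 and 55.3 in DMSO, 332, 299.7 and 327 in DT, 85.5, 100.04 and 96.6 in E and 221, 243 and 263 in DTE (-0.96 ± 0.15, adjusted p = 0.0035). Its DTE arrays lay above DMSO and E and below DT. YPEL3, a small growth-suppressing protein named above, measured 56.2, 54.3 and 49.9 in DMSO, 114, 119.7 and 129.8 in DT, 60.4, 72.7 and 58.7 in E and 69.3, 75.97 and 72.6 in DTE (adjusted p = 0.0015). The nuclear lamina protein LMNB1, which the list holds as a gene that falls in arrested cells, was above (0.56 ± 0.14, -0.16 deposited) and lost its call without any of 10 arrays (adjusted p up to 0.095). Of 18 histone deacetylase and sirtuin genes 2 were below (11.1%, against 2.24% of all genes), with a median of -0.16. On the deposited scale 16 were below, and after median centring 6 were. HDAC9, a class IIa enzyme, measured 50.3, 49.9 and 48.6 in DMSO, 101, 95.3 and 101 in DT, 48.4, 44.6 and 43.3 in E and 65.4, 58.5 and 62 in DTE (-0.55 ± 0.11, adjusted p = 0.012). HDAC11, the class IV enzyme, departed by -0.53 ± 0.11 and lost its call without DMSO replicate 1 or E replicate 3 (adjusted p up to 0.051). The class I deacetylases HDAC1 (-0.15 ± 0.11), HDAC2 (0.20 ± 0.14, and -0.012 after median centring) and HDAC3 (-0.07 ± 0.13) were not called, nor were MAP2K1 for MEK1 (-0.08 ± 0.12) and MAP2K2 for MEK2 (-0.03 ± 0.27). Limma's test called all 5 below additivity on the deposited scale, at -0.98, -0.62, -0.89, -0.88 and -0.86 in the same order.

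Of 15 cadherins and protocadherins, which hold cells to one another, 3 were below additivity (20%, against 2.24% of all genes) and 0 above in limma's test. At an unadjusted p under 0.05 these were 6 and 2, and the median was -0.03. The count below was 10 on the deposited scale, after median centring 6 and after loess 5. PCDHB5, a clustered protocadherin, measured 138, 170.5 and 162 in DMSO, 372, 386 and 327 in DT, 433, 408 and 432 in E and 560.2, 559 and 543 in DTE (-0.82 ± 0.13, adjusted p = 0.0037). Each treatment alone raised it and the DTE arrays were the highest, at 0.566 of the expected 978 as a ratio. PCDHB14 (-0.61 ± 0.10) and PCDH1 (-0.65 ± 0.14) were the others, and close relatives in the protocadherin clusters may share probes, which was not tested. In the neuronal list 1 of 36 was above, DPYSL3 (0.63 ± 0.12, -0.17 deposited), and 1 below, MAP2 (-0.66 ± 0.12). These shares, 2.78% each, were near the 1.99% and 2.24% of all genes, and the split was 0 above and 21 below on the deposited scale and 3 and 7 after median centring. MAP2, a dendritic microtubule-associated protein, measured 57.3, 52.9 and 60.04 in DMSO, 122, 113 and 124 in DT, 291, 271 and 281 in E and 347, 374 and 409 in DTE, and its departure was 32.5 intensity units above 0 when additivity was set on linear intensities (adjusted p = 0.335). In lysosome and autophagy 2 of 29 were below (6.9%, with 26 on the deposited scale and 8 after median centring), MAP1LC3C and the cathepsin CTSO (-0.72 ± 0.17), which was near background in 1 arm and lost its call without any of 8 arrays (adjusted p up to 0.078). In limma's test 0 members were called among 16 BCL2 family genes, 14 p53 targets, 15 genes of the unfolded protein response, 15 of sterol synthesis, 14 of base excision repair, 9 of the respiratory chain and 11 of TGF-beta signalling. At the 1.99% and 2.24% of all genes, lists of this size would hold few calls or none, so these zeros do not set the lists apart. At an unadjusted p under 0.05 these lists had 4, 4, 2, 3, 2, 1 and 4 genes, in the same order. On the deposited scale 14, 11, 15, 14, 13, 8 and 7 were called below.

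Some departures were found in genes of other cell types. CD14, a monocyte receptor, measured 28.7, 24.7 and 31.6 in DMSO, 63.04, 52.96 and 58.3 in DT, 47.3, 48.8 and 46.6 in E and 44.4, 45.7 and 32.1 in DTE (-1.28 ± 0.19, adjusted p = 0.0023). CD53, a leukocyte tetraspanin, measured 13.8, 12.5 and 14.99 in DMSO, 40.9, 36.7 and 36.1 in DT, 21.3, 24.2 and 17.5 in E and 19.4, 17.8 and 21.9 in DTE (-1.55 ± 0.17). In both the DT arrays were the highest. All 8 measured leukocyte markers were clear of background in each arm. Of them LYZ was above and CD14 below (12.5% each, against 1.99% and 2.24% of all genes). The summed intensity of the 8 ran from 350 to 395 in DMSO, 415 to 417 in DT, 488 to 526 in E and 464 to 509 in DTE. Of 12 keratinocyte markers 0 were called in limma's test, with 3 at an unadjusted p under 0.05 and 4 clear of background, and their sum ran from 196 to 221, 228 to 248, 298 to 353 and 496 to 597 in the same order. Of 8 endothelial markers 5 were clear of background, and their sum ran from 143 to 151 in DMSO, 121 to 136 in DT, 286 to 340.4 in E and 199.9 to 207 in DTE. Of 4 fibroblast markers 1 was clear, with sums of 42.3 to 63.9 over the 12 arrays. In limma's test 0 members of either list were called, with 1 in each at an unadjusted p under 0.05. At the shares of all genes, the keratinocyte, endothelial and fibroblast lists would hold few calls or none. KRT5 and DCN were near background, KRT14, VWF and the 8 leukocyte markers were not, and the part of other cell types in these values was not tested.

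Of the 4218 genes near background in 1 or more arms, 31 were called above and 34 below. Among the 10364 genes clear of background these were 259 and 292 (2.5% and 2.82%), a larger share. PDGFD, a platelet-derived growth factor, measured 43.5, 37.9 and 42.6 in DMSO, 12.8, 11.9 and 14.5 in DT, 53.2, 57.9 and 60.6 in E and 47.5, 41.2 and 41.6 in DTE, and its DT arrays were at background. ERBB4, a receptor tyrosine kinase, measured 12, 10.1 and 11.5 in DMSO, 12.1, 11.1 and 10.9 in DT, 21.9, 18.5 and 19.7 in E and 38.3, 48.4 and 56.5 in DTE, with DMSO and DT at background and the DTE arrays above all others. RGS1, a regulator of G-protein signalling, measured 38.8, 32.2 and 42.3 in DMSO, 14.1, 12.6 and 7.17 in DT, 84.8, 99.6 and 106 in E and 10.5, 11.7 and 9.74 in DTE. It was raised by entinostat alone and was at background with the other agents. ASPA, the enzyme aspartoacylase, was above background in DT only, at 33.9, 42.02 and 41.7. For such genes the contrast depends on values that have no reliable order, so their contrasts of 1.26 ± 0.14, 1.21 ± 0.18, -1.39 ± 0.29 and -1.77 ± 0.22 are given as fitted. MIR7-3HG (1.58 ± 0.20), EBF1 (0.99 ± 0.19), ARHGEF35 (-1.66 ± 0.23) and HKDC1 (-1.35 ± 0.16) were of the same kind.

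Of the 83 named genes called, 67 kept their call without each array in turn. With additivity set on linear intensities, 258 of the 259 genes above and 291 of the 292 below kept the sign of their departure. In 109 genes above, lowered by both treatments alone, the linear expectation lies under the log2 expectation, so the sign could hardly turn. The same held, in reverse, for 46 below that dabrafenib plus trametinib raised and entinostat lowered. Where only dabrafenib plus trametinib was called alone (80 above, 78 below), the expectations lie close together. The sign was free to turn mainly in 128 genes below, raised by both alone. It was also free in 39 above, lowered by dabrafenib plus trametinib and raised by entinostat.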

How the data were processed

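Total RNA was hybridised to 12 Affymetrix arrays, 3 per arm. The authors deposited linear intensities per probe set. The submitters' processing notes name RMA and Transcriptome Analysis Console, without version or order. How arrays were brought to a common scale is unknown (not given in the sources used here), and medians of the deposited intensities ran from 16.8 to 31.9. The labels' protocols record an ERCC spike-in before extraction, and its use in scaling is not known.

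Among 29398 probe sets, 14750 carry 1 gene name in GEO's platform annotation updated to RefSeq symbols, and all of their gene identifiers matched. The other 14648 were not named here, and in a fit of all probe sets 196 of them were called above and 172 below. The brightest probe set stood for each of 156 genes with several, and none of these genes had probe sets called in opposite directions. Intensities were quantile-normalized over all probe sets, and log2 was taken with no pseudocount. With limma 3.58.1 in R 4.3.3, lmFit and eBayes fitted 1 mean per arm, and p-values were adjusted by Benjamini-Hochberg over 14582 genes for each contrast. The script was tested on simulated data.

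Genes were named by rule: the 12 largest called contrasts in each direction among genes clear of background, brighter at their highest arm than the median gene and with an established name. Added to these were the 2 largest in each pattern class of at least 10 genes, up to 4 members of each list described with the smallest adjusted p, the 4 largest near background in each direction, and drug targets. The genes, gene lists and rules were chosen with earlier results of these data known, and the 14 lists described were chosen after their values were seen. Alternatives were other scalings, a pseudocount of 16, linear intensities, another variance model, array weights, other filters and probe set rules, a replicate block and leaving out each array. Deviations of same-numbered replicates from their arm means correlated at -0.08 to 0.07 between arms, so the numbers were not taken to pair the samples. Promoter sequences are from RefSeq, GRCh38.p14.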

Additional observations from a re-analysis of the deposited data

Results flagged for a closer look

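In 19 of the named genes clear of background a treatment was called in opposite directions without and with the other, a difference that the contrast itself tests. Entinostat raised 9 of these genes alone and lowered them on top of dabrafenib plus trametinib, namely JUN (-1.94), FHDC1 (-1.60), CD53 (-1.55), MYOZ2 (-1.37), the non-coding MROCKI (-1.34), CD14 (-1.28), MARCKS (-1.13), RHOB (-1.10) and TXNIP (-0.96), where the value is the contrast. It did the reverse, lowering alone and raising on top of the other agents, in MYC (1.78), CHL1 (1.17), MITF (1.10), HMGA1 (0.69), RRP1B (0.65), MCM3 (0.62) and GPI (0.56). The rise on top of the other agents ran from 0.19 in GPI to 0.66 in CHL1. It was near the limit of a call in GPI and in MYC (0.32), with adjusted p of 0.043 and 0.031 in limma's test. These rises are relative to the bulk of genes, and as deposited the DTE arrays lay at a lower level than the DT arrays. Dabrafenib plus trametinib raised KRTAP21-1 (-2.69) and ANXA1 (-1.18) alone and lowered them in the presence of entinostat, and it lowered FYB1 (1.00) and CHL1 alone and raised them in its presence. KRTAP21-1, a keratin-associated protein, measured 53.8, 60.7 and 90.1 in DMSO, 189, 181 and 214 in DT, 58.9, 59.9 and 65.9 in E and 30.01, 32.3 and 22.3 in DTE, so its DTE arrays were the lowest. FYB1 lost its call without DMSO replicate 1, DMSO replicate 2 or DT replicate 1, with an adjusted p of up to 0.058. On the deposited scale the contrasts of HMGA1, RRP1B, MCM3 and GPI were below 0.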

How the results depend on the processing

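The counts moved by more than 1.5 times with the scale. On the deposited scale there were 30 genes above and 9117 below additivity (9 and 8028 clear of background), and after median centring 1170 and 1103, with 1070 below among genes clear of background and 173 above. Additivity on linear intensities gave 569 and 598 (533 and 559), a pseudocount of 16 gave 520 and 556 (485 and 520), and a trended, robust variance gave 445 above (408 and 449 clear of background). Leaving out 1 array gave 174 to 244 above and 218 to 278 below, and 152 to 217 and 192 to 245 among genes clear of background. Of the 616 calls, 573 (93%) were made again in the same direction after loess, 462 (75%) after median centring and 345 (56%) on the deposited scale. With the replicate number as a block, which the check of the numbers does not bear out as a pairing, 551 genes were called, 256 above and 295 below, and 504 were shared. On the deposited scale the contrast turned below 0 in AURKB (-0.029), CCNA2 (-0.25), CDC20 (-0.21), CDK1 (-0.085), DPYSL3 (-0.17), E2F8 (-0.19), GPI (-0.20), HMGA1 (-0.090), LDHA (-0.17), LMNB1 (-0.16), LYAR (-0.16), MCM10 (-0.11), MCM3 (-0.18), MCM6 (-0.19), NOLC1 (-0.11), RRP12 (-0.17), RRP1B (-0.12), XRCC2 (-0.11) and HDAC2 (-0.62, adjusted p = 0.024). HDAC2 was at -0.012 after median centring, and MAP2 at 32.5 intensity units on the linear scale. Contrasts near 0 changed sign without single arrays: HDAC3 ranged from -0.14 to 0.015, above 0 without DT replicate 1, and MAP2K2 from -0.24 to 0.18, above 0 without DT replicate 1 (0.059), E replicate 2 and DTE replicate 3 (0.16). The median contrast of all genes was -0.63 on the deposited scale, and the cause of these changes was not tested. Array precision is limited by 3 arrays per arm, and levels near 13.2 carry no order.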

Other observations

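MYOZ2, a relative of MYOZ1, measured 29.7, 27.8 and 29.1 in DMSO, 95.8, 104 and 86.1 in DT, 49.8, 44.3 and 50.4 in E and 60.6, 70.7 and 53.4 in DTE (-1.37 ± 0.15, adjusted p = 0.00037). Its DTE arrays lay above those of DMSO and E, unlike those of MYOZ1. MROCKI, a long non-coding RNA, measured 14.8, 19.2 and 17.2 in DMSO, 92.2, 84.5 and 91.2 in DT, 33.4, 27.05 and 34.6 in E and 68.6, 65.3 and 62.5 in DTE (-1.34 ± 0.16, adjusted p = 0.00053). FYB1, an adaptor of immune cells, measured 97.2, 102 and 72.9 in DMSO, 56.6, 65.8 and 71.4 in DT, 70.2, 95.8 and 105 in E and 129.8, 125 and 130.01 in DTE (1.00 ± 0.22, adjusted p = 0.021), and its DTE arrays lay above all others. The pseudogene NUDT9P1 departed by -1.23 ± 0.26 (adjusted p = 0.017), with its DTE arrays below all others. MIR548V, a microRNA gene, departed by 1.13 ± 0.26 (adjusted p = 0.029) and lost its call without any of 6 arrays, with an adjusted p of up to 0.072.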
